A study of Mus musculus with 12 samples.

Results

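Notch receptors, Notch ligands and the Hey and Hes repressors downstream of them were followed in the mouse atrioventricular canal (AVC) and in the adjacent primary ventricle (labelled LV). The 10 genes were the receptors Notch1, Notch2, Notch3 and Notch4, the ligands Jag1 and Dll4, and the transcriptional repressors Hey1, Hey2, Heyl and Hes1. They were chosen by symbol out of 19057 genes with a probe of their own, and each was read by its brightest probe of the 14 that carry their symbols. Total RNA of dissected heart segments was profiled on 12 Illumina Mouse WG-6 v2 arrays, 3 for each of AVC at embryonic day 10 (AVC E10), LV at day 10 (LV E10), AVC at day 9 (AVC E9) and LV at day 9 (LV E9). No treatment or genetic change is given for any embryo, and the sources do not state the strain, sex or number of embryos behind a sample. Each sample is a mixture of cells, among them myocardium, endocardium and blood, and in the AVC those of the forming cushions. Fewer cells of a type and less RNA per cell therefore cannot be told apart. The study took the day 9 AVC as a stage before the endocardial-to-mesenchymal transition of the cushions.

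Notch receptors are cut after binding a ligand on a neighbouring cell, and their intracellular domain moves to the nucleus, where it joins the DNA-binding protein RBPJ and activates genes of the Hey and Hes families. In the mouse heart, endocardial Notch signalling is required for the endocardial-to-mesenchymal transition that fills the AVC cushions, while Hey1 and Hey2, in AVC-flanking chamber myocardium, keep the Bmp2 and Tbx2 programme of the AVC out of the chambers. Notch1 and Notch4 are receptors of endothelium and endocardium, and Notch3 is best known from mural cells around vessels.

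The values are background-subtracted intensities on a linear scale. As background limit an array's most negative value was taken with its sign dropped, which gave 22.4 to 29.6, and a gene counted as above background on an array when it exceeded that limit. Between 36.7% and 41.0% of probes passed on each array. The labelled tissues showed their defining markers: Tbx3, a repressor of chamber genes in the AVC, averaged 796 ± 217 in AVC E10 and 99.1 ± 75.2 in LV E10 (SD, n = 3 each), and Nppa, a marker of chamber myocardium, averaged 10642 ± 2433 in AVC E10 and 26656 ± 2415 in LV E10. One array stood apart, LV E10 replicate 1, which correlated at 0.933 on average with its own group but at 0.969 with LV E9 replicate 2. In the AVC, E10 replicate 1 was nearest to E9 replicate 2 and the reverse, at 0.979.

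RefSeq promoters of the GRCm38.p6 build, each running from 250 bases before to 50 bases after a gene's start, were found for 7 of the 10 genes, those of Hey1, Heyl and Hes1 not being in the table used. TGGGAA, the core of the sequence that RBPJ binds, was searched on both strands. It stood in the Hey2 promoter alone among the 7, and 25.6% of all 32851 promoters held it, so the match is a description of these letters and no more. The Hey2 promoter is shown as the one with matches, up to the end of its last match (chr10:30842781-30843033, minus strand), with the matches in capitals, and the 250 bases upstream of Notch3, the gene called between tissues at both ages below, are shown as a promoter without one (chr17:32166891-32167140, minus strand).
Hey2: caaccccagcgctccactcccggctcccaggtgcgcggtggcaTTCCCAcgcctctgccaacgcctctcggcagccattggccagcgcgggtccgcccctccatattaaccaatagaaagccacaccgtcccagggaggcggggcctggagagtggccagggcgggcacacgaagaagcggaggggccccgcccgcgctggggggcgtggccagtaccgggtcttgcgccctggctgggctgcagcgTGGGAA
Notch3: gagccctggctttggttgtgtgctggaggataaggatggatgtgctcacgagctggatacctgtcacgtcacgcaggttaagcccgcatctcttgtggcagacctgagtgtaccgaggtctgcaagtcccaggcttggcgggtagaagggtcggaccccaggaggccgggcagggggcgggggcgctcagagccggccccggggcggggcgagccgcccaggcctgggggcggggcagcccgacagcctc
Counted from the start, with no position 0, the first Hey2 match lay at -207 to -202, as TTCCCA and so on the opposite strand, and the other at -3 to 3, as TGGGAA across the start itself.

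**Figure D1:**
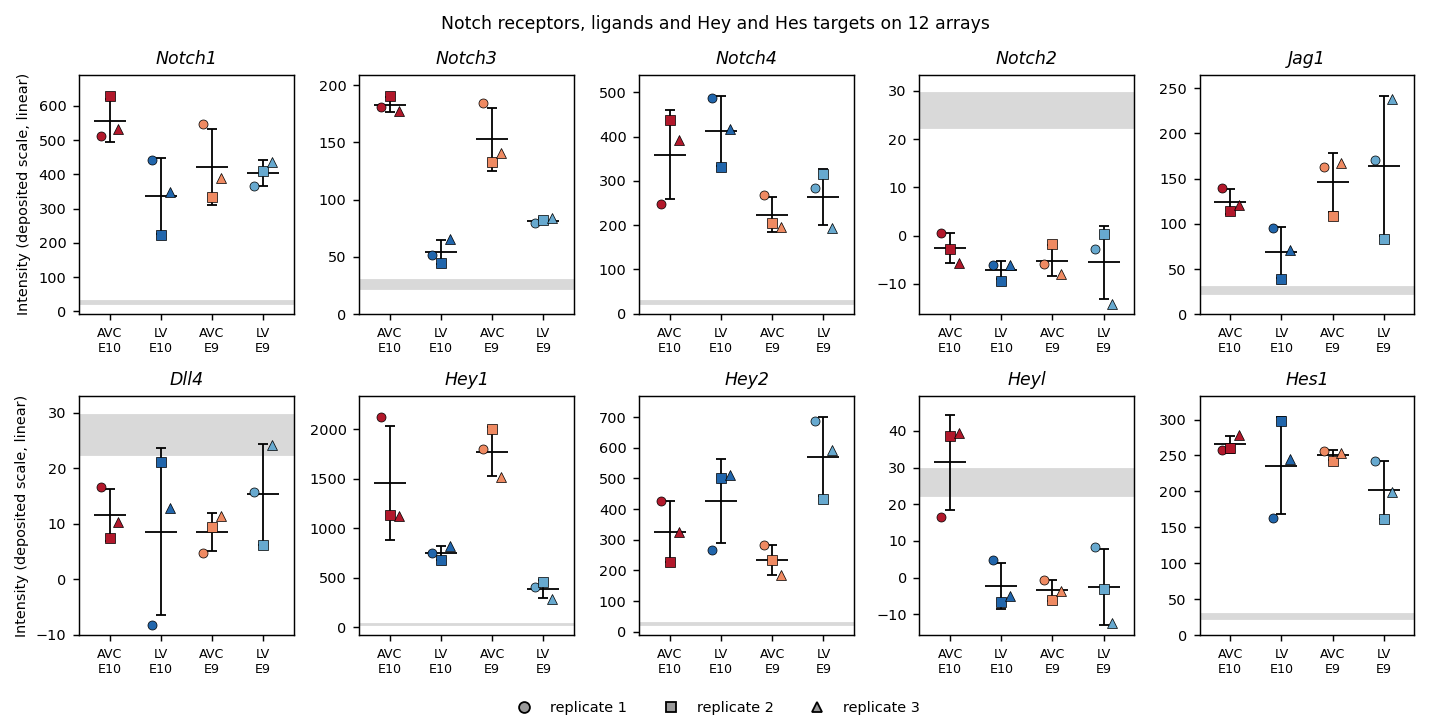
Intensity of the 10 genes on the 12 arrays (linear axes, one panel a gene, shape for the replicate), with the mean and SD of each group (n = 3) as black lines and the range of the arrays' background limits, 22.4 to 29.6, as a grey band. Notch3 in the AVC lay at 133 to 191, above every LV array, Notch2 and Dll4 never left the band or the space under it, and Heyl passed the limit on 2 AVC E10 arrays.

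Notch3 was the receptor that separated the tissues. Its intensity was 180.5, 191 and 178 on the AVC E10 arrays, against 51.8, 44.8 and 65.4 on the LV E10 arrays. On the day 9 arrays it was 184, 133 and 141 in the AVC, against 79.9, 81.9 and 83.6 in the LV. Every AVC array was therefore above every LV array at both ages, and the LV E10 arrays were the lowest of all 12. The log2 difference was 1.78 ± 0.15 (SE) at E10, a 3.43-fold higher level in the AVC (limma, Benjamini-Hochberg adjusted p = 0.00187), and 0.88 ± 0.15 at E9, 1.85-fold (adjusted p = 0.0366). The E10 call held without each array in turn (highest adjusted p 0.0112). The E9 call held without each of the LV E10 arrays and was lost without each of the other 9, with adjusted p between 0.0311 and 0.121 over the 12 fits, and was lost after quantile normalization (difference 0.73).

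Between the ages Notch3 had a difference of 0.28 ± 0.15 in the AVC (adjusted p = 0.532) and -0.62 ± 0.15 in the LV (adjusted p = 0.0715). All LV E10 arrays were below all LV E9 arrays. The AVC-to-LV difference was larger at E10 than at E9 by 0.89 ± 0.21, which did not pass the interaction test (adjusted p = 0.529). The tissue difference of Notch3 moved together with several cell markers: of 9 cushion mesenchyme markers, 4 were higher in the AVC at E10 and 3 at E9 (2.06% and 0.855% of all genes were), with summed intensities of 7278 to 8217 in AVC E10, 1292 to 2374 in LV E10, 4999.9 to 6666 in AVC E9 and 1585 to 2051 in LV E9. Of 9 mural and smooth muscle markers, 0 were called in either tissue comparison, and 3 in each had an unadjusted limma p under 0.05, against 13.9% of all genes at E10 and 11.5% at E9. Without a call, 4 of the 9 were higher without overlap at E10 and 1 lower, against 13.1% and 2.68% of all genes. At E9 1 was higher and 2 lower, against 11.8% and 5.31%. The list's median difference was 0.91 at E10 and -0.22 at E9, or 0.26 and -0.23 for its 6 markers above background. The mean log2 level of the 9 mural markers was 6.75 to 8.11 in AVC E10, 6.61 to 7.21 in LV E10, 6.90 to 7.08 in AVC E9 and 6.28 to 6.57 in LV E9, so that the E9 groups did not overlap. Their summed intensities were 27984 to 28336 in AVC E10, 30198 to 34655 in LV E10, 27899.5 to 34984 in AVC E9 and 33662 to 39619 in LV E9, which is mostly Acta2, a smooth muscle actin also made by embryonic myocardium. Among the mural markers Myh11 was above background on 2 arrays, both AVC E10, and Rgs5 on 2 arrays, both AVC E9. Markers of AVC myocardium and of the atrium and sinus venosus, given with Hey1 below, also followed the AVC label. The part of any cell type in the Notch3 difference was not tested.

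Notch1, the receptor required in endocardium for cushion formation, had separate tissue ranges at E10 without passing the test. It gave 511, 628 and 532 on the AVC E10 arrays, against 443, 222 and 348 on the LV E10 arrays. At E9 it gave 547, 333 and 389 in the AVC, against 365, 409.9 and 438 in the LV. The groups did not overlap at E10 and overlapped at E9. The differences were 0.77 ± 0.26 at E10 (1.71-fold, adjusted p = 0.206) and 0.04 ± 0.26 at E9 (adjusted p = 1), and neither passed the test. By age, Notch1 had a difference of 0.42 ± 0.26 in the AVC and -0.31 ± 0.26 in the LV, with overlapping arrays in both (adjusted p = 0.62 and 0.568).

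Notch4, a receptor of vascular endothelium, gave 247, 438 and 393 on the AVC E10 arrays, against 488, 331 and 418 on the LV E10 arrays. The E9 arrays gave 269, 206 and 196 in the AVC, against 283, 316 and 193 in the LV. The tissues overlapped at both ages, whereas the E10 arrays were mostly the brighter ones, and in the LV every E10 array exceeded every E9 array. The tissue difference was -0.22 ± 0.27 at both ages, with 95% intervals of -0.84 to 0.40. By age the difference was 0.66 ± 0.27 in the AVC (adjusted p = 0.365) and 0.66 ± 0.27 in the LV (adjusted p = 0.231). The other Notch4 probe passed the background limit on 3 arrays and was not used. Notch2 gave no usable signal: its brighter probe read -14.1 to 0.51 and its other probe -11.5 to 2.78, both under the limit on all 12 arrays, so no level or difference is given for it.

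Of the ligands, Jag1 had signal in every group and Dll4 did not. Jag1, the ligand whose loss in mouse endothelium impairs valve formation, gave 139.6, 114 and 121 on the AVC E10 arrays, against 95.3, 39.0 and 70.6 on the LV E10 arrays. At day 9 the values were 163, 108 and 167 in the AVC, against 171, 83.3 and 238 in the LV. The LV E10 arrays all lay below the AVC E10 arrays, and the LV E9 arrays had the widest spread of any group. The tissue difference was 0.96 ± 0.43 at E10 (adjusted p = 0.38, arrays not overlapping) and -0.07 ± 0.43 at E9 (adjusted p = 1). By age it was -0.21 ± 0.43 in the AVC (adjusted p = 1) and -1.23 ± 0.43 in the LV (adjusted p = 0.162). Dll4, an endothelial Notch ligand, read -8.22 to 24.2 with its brighter probe, under the limit of every array. Its other probe passed the limit on AVC E10 replicate 2 alone, at 32.0, and no difference is given.

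Hey1, a direct Notch target, had the larger of the called tissue differences at E9. It gave 2125, 1131 and 1126 on the AVC E10 arrays, against 747, 674 and 820.2 on the LV E10 arrays. The E9 values were 1799, 2007 and 1516 in the AVC, against 406, 457 and 282 in the LV. Every AVC array was again above every LV array at both ages, but the E10 groups lay closer, with LV E10 above LV E9 on all arrays and a single bright array, replicate 1, in AVC E10. The difference was 0.90 ± 0.27 at E10, which did not pass (1.87-fold, adjusted p = 0.156). It was 2.24 ± 0.27 at E9, 4.72-fold higher in the AVC (adjusted p = 0.0143). Of 12 fits that each left out an array, the one without AVC E9 replicate 1 ended the E9 call (difference 2.22, adjusted p = 0.0508).

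By age, Hey1 had a difference of -0.34 ± 0.27 in the AVC (adjusted p = 0.718) and 0.99 ± 0.27 in the LV (adjusted p = 0.0961, arrays not overlapping). The tissue by age interaction, the AVC-to-LV difference at E10 minus that at E9, was -1.33 ± 0.39 and did not pass the test (adjusted p = 0.699). Markers of the AVC myocardium and of the atrium and sinus venosus, myocardium next to the AVC, moved with the AVC label. Of 7 AVC myocardium markers 4 were higher in the AVC at E10 and 3 at E9, against 2.06% and 0.855% of all genes, with summed intensities of 2099 to 4137 in AVC E10, 449 to 1008 in LV E10, 2908 to 5071 in AVC E9 and 1335 to 1653 in LV E9. Of 8 atrial and sinus venosus markers 2 were higher at E10 and 3 at E9, against the same shares, with sums of 1999 to 3084 in AVC E10, 485 to 657 in LV E10, 1609 to 1790.3 in AVC E9 and 469 to 624 in LV E9. Hcn4, a pacemaker channel of the sinus venosus, was under the limit on every array. The cushion mesenchyme markers given with Notch3 above followed the AVC label as well. The part of any of these tissues in the Hey1 difference was not tested.

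Hey2, the Hey gene of ventricular compact myocardium, ran the other way in its ranges at E9. It gave 427, 228 and 325 on the AVC E10 arrays, against 268, 502 and 511 on the LV E10 arrays. At E9 it gave 283, 233 and 185 in the AVC, against 688, 432 and 591 in the LV. The E9 arrays of the tissues did not overlap, every LV array being the brighter, and at E10 the groups overlapped, LV E10 replicate 1 lying within the AVC range. The difference was -0.37 ± 0.33 at E10 (adjusted p = 0.713) and -1.28 ± 0.33 at E9 (adjusted p = 0.137), and neither passed the test. Without LV E10 replicate 1, the array that stood apart, the E10 difference was -0.68 (adjusted p = 0.306). A second Hey2 probe, above background on all 12 arrays, gave -0.47 at E10 and -1.36 at E9, and followed the first across the arrays (Pearson's r 0.985 over 12 arrays, both probes reading the same RNA). By age the first probe gave 0.46 ± 0.33 in the AVC (adjusted p = 0.659) and -0.45 ± 0.33 in the LV (adjusted p = 0.5), or -0.15 (adjusted p = 0.911) without LV E10 replicate 1. Its promoter, printed above, is the one with the TGGGAA matches. Chamber myocardium markers moved with the LV label: of 11, 2 were lower in the AVC at each age, against 0.241% of all genes at E10 and 0.168% at E9, with summed intensities of 43760.2 to 45028 in AVC E10, 76474 to 80422 in LV E10, 32544 to 44949 in AVC E9 and 73383 to 80005 in LV E9, and their part in the Hey2 values was not tested.

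**Figure D2:**
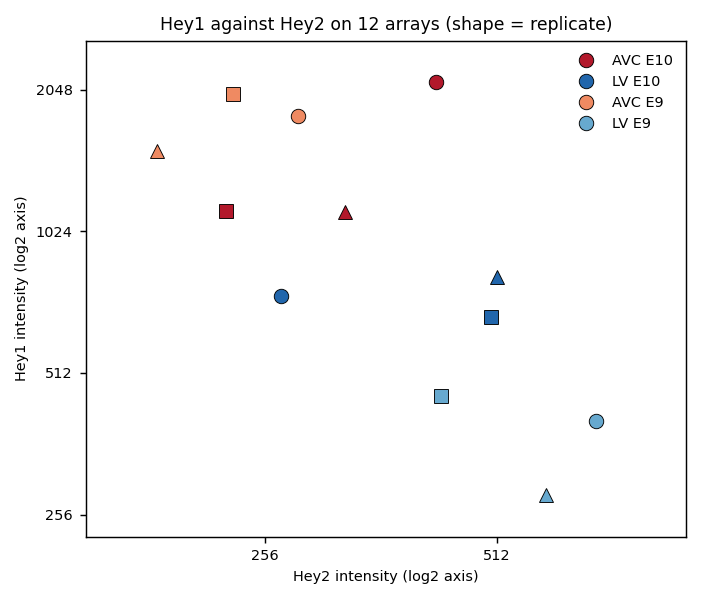
Hey1 intensity (vertical) against Hey2 intensity (horizontal), both on log2 axes, for each of the 12 arrays, coloured by group and shaped by replicate. The AVC E9 arrays lie at the upper left, with Hey1 at 1516 to 2007 and Hey2 at 185 to 283, and the LV E9 arrays at the lower right, with Hey1 at 282 to 457 and Hey2 at 432 to 688, while the E10 groups lie between them except for AVC E10 replicate 1 at the top.

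The balance of Hey1 and Hey2 was taken on each array as the log2 intensity of Hey1 minus that of Hey2, and set relative to its mean over the 12 arrays, since the raw ratio of different probes has no scale. It was 0.98, 0.97 and 0.45 on the AVC E10 arrays, against 0.14, -0.91 and -0.66 on the LV E10 arrays. It was 1.33, 1.77 and 1.69 on the AVC E9 arrays, against -2.10, -1.26 and -2.41 on the LV E9 arrays. All 4 groups were separate, in the order AVC E9, AVC E10, LV E10 and LV E9 from high to low. The balance differed between AVC and LV by 1.28 at E10 and 3.52 at E9, and between E10 and E9 by -0.80 in the AVC and 1.45 in the LV. These are descriptions with no test, since the measure was formed after the values of both genes were known. Over the 12 arrays Hey1 and Hey2 had a Pearson's r of -0.70, which the tissue groups share in setting.

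Heyl, a Hey gene of cushion mesenchyme and mural cells in mouse, was detected in AVC E10 alone. Its intensity was 16.5, 38.5 and 39.3 on the AVC E10 arrays, against 4.81, -6.76 and -5.02 on the LV E10 arrays. It was -0.551, -6.1 and -3.69 on the AVC E9 arrays, against 8.24, -3.18 and -12.5 on the LV E9 arrays. Replicates 2 and 3 of AVC E10 exceeded the background limit and none of the other 10 arrays did. Because values under 1 were set to 1 before the logarithm, the fitted differences of 4.11 for AVC against LV at E10 (adjusted p = 0.0613) and 4.87 for E10 against E9 in the AVC (adjusted p = 0.0671) depend on that floor and give no fold. With log2 of the value plus 50 in its place, both passed the test, at 0.65 (adjusted p = 0.0237) and 0.69 (adjusted p = 0.0311). With values under 16 set to 16, neither passed, at 0.87 for each (adjusted p = 0.213 and 0.257), so the call depends on how low values are treated.

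Hes1, a repressor that Notch induces in many tissues, gave 258, 259.7 and 279 on the AVC E10 arrays, against 164, 298 and 246 on the LV E10 arrays. On the E9 arrays it read 256, 242 and 253 in the AVC, against 243, 162 and 199.7 in the LV. All 6 AVC values lay between 242 and 279, and the LV values were spread more widely on both sides of that range. The tissue difference was 0.21 ± 0.21 at E10 (95% interval -0.27 to 0.70) and 0.33 ± 0.21 at E9 (-0.15 to 0.82). By age it was 0.08 ± 0.21 in the AVC and 0.20 ± 0.21 in the LV. None of the 4 passed the test.

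**Figure D3:**
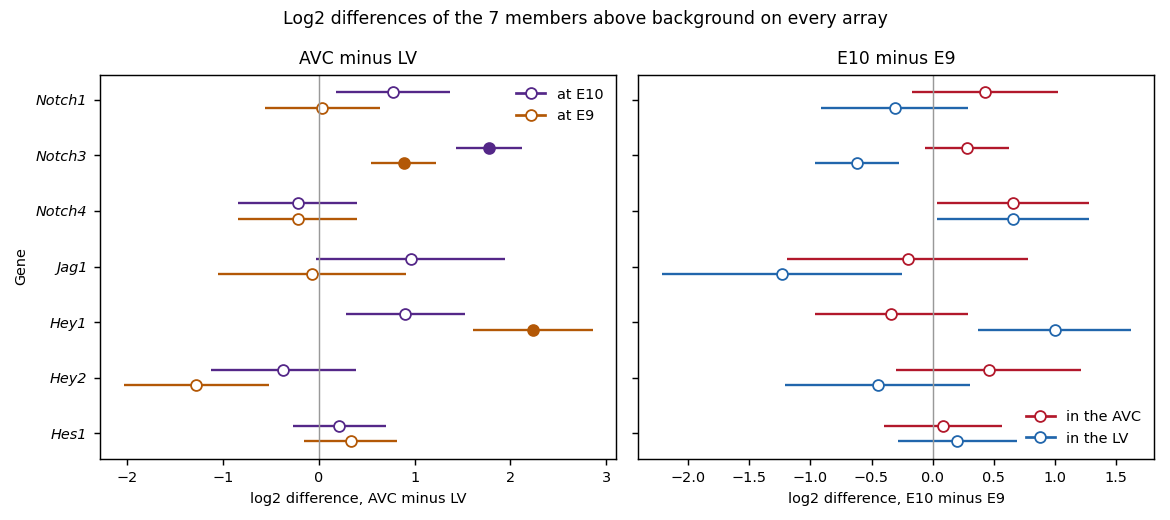
Log2 differences of the 7 genes above background on all 12 arrays, AVC minus LV at each age (left) and E10 minus E9 in each tissue (right), with 95% intervals from limma (3 arrays a group) and filled points at adjusted p under 0.05. The filled points are Notch3 at 1.78 (E10) and 0.88 (E9) and Hey1 at 2.24 (E9), and no age difference is filled.

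Counted together, 1 of the 10 genes (Notch3) was called higher in the AVC at E10, where 2.3% of all genes were called in either direction, and 2 of 10 (Notch3 and Hey1) at E9, where 1.02% were. For age, limma called 0 of the 10 in the AVC (0.551% of all genes) and 0 in the LV (2.37%). At an unadjusted limma p under 0.05 the counts for age were 2 of 10 in the AVC and 4 of 10 in the LV, against 12.5% and 19.6% of all genes. In the tissue comparisons the unadjusted counts were 4 of 10 at E10 and 3 of 10 at E9, against 13.9% and 11.5% of all genes. For the tissue by age interaction 0 of 10 were called, against 0.0315% of all genes, with 3 of 10 under the unadjusted threshold, against 4.71%. Of the 7 genes above background on all 12 arrays, 4 (Notch1, Notch3, Jag1 and Hey1) had every AVC E10 array above every LV E10 array, a pattern that 21.2% of genes above background on those 6 arrays showed. At E9 it was 2 of the 7 (Notch3 and Hey1), against 18.8%, with Hey2 the other way, against 7.83%. By age, Hes1 alone of the 7 had every AVC E10 array above every AVC E9 array, against 14.8%, while in the LV Notch4 and Hey1 were higher without overlap, against 11.6%, and Notch3 lower, against 22.3%. At the thresholds of the study's methods (4-fold and a p under 0.01, taken here as unadjusted, which the methods do not state), Hey1 passed between tissues at E9, against 1.17% of all genes. Heyl, whose value depends on the floor, passed between tissues at E10 (1.41%), for age in the AVC (1.36%) and in the interaction (0.514%), and 0 of the 10 passed for age in the LV (1.67%). Without LV E10 replicate 1, the E10 tissue differences were 1.76 for Notch3 (adjusted p = 0.00527), 0.999 for Notch1 (adjusted p = 0.0791), 1.24 for Jag1 (adjusted p = 0.204) and 0.91 for Hey1 (adjusted p = 0.194), and none of these 4 calls changed, while Heyl passed the test without that array, between tissues at E10 (adjusted p = 0.0307) and for age in the AVC (adjusted p = 0.0438). The median log2 difference of the 7 genes above background was 0.77 at E10 and 0.04 at E9. Over all genes above background on every array of either compared group it was 0.18 and 0.08.

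Notch1 and Notch4 are transcribed in endocardium, whose markers had higher summed levels at E10, with 1 of them called. Of 14 endothelial and endocardial markers, 13 were above background on all 12 arrays, and Kdr was on none. Their summed intensities were 12821 to 16551 in AVC E10, 14036 to 16334 in LV E10, 9117 to 10796 in AVC E9 and 10741 to 12228 in LV E9, so that every E10 array was above every E9 array. For age, 0 of the 14 were called in the AVC (0.551% of all genes), with 8 at an unadjusted limma p under 0.05 (12.5%), and 1 in the LV (2.37%), Pecam1, an endothelial adhesion molecule, which averaged 459 ± 25.2 in LV E10 and 197 ± 17.8 in LV E9. Between tissues, Nfatc1, a factor of cushion endocardium, was higher in the AVC at E10 by 1.36 and Plvap, a protein of endothelial diaphragms, was lower by 0.63 on the log2 scale, and 0 were called at E9, with 8 of the 14 at an unadjusted limma p under 0.05, against 11.5% of all genes. The markers went both ways: at E9, 3 of the 14 were higher in the AVC without overlap and 4 lower, against 11.8% and 5.31% of all genes. At E10, 2 were higher and 3 lower, against 13.1% and 2.68%. The mean log2 level of the 13 differed between E10 and E9 by 0.61 in the AVC and 0.36 in the LV, and between AVC and LV by 0.24 at E10 and -0.01 at E9.

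The genes were then set against these markers, array by array, as a description. The marker mean pools markers that differed between tissues in both directions. Relative to the marker mean, the age difference of Notch4 was 0.04 in the AVC and 0.30 in the LV, with overlapping arrays in both. Notch1 relative to the markers differed between AVC and LV by 0.53 at E10, where the lowest AVC array, at -0.027, barely cleared the highest LV array, at -0.030, and by 0.05 at E9. Notch4 relative to the markers differed by -0.46 at E10, without overlap, and by -0.21 at E9. Notch3 relative to the markers differed by 1.54 at E10 and 0.89 at E9, without overlap at either age. Hey1 relative to the markers differed between AVC and LV by 0.66 at E10, with overlap, and by 2.25 at E9, without, and between E10 and E9 by -0.95 in the AVC and 0.63 in the LV. Epicardial markers also differed with age: of 6 measured, 1 was called higher at E10 in the AVC and 2 in the LV, against 0.43% and 1.37% of all genes. Their median differences were 2.80 and 2.48. Their summed intensities were 4864 to 5458 in AVC E10, 2946 to 6678 in LV E10, 599 to 857 in AVC E9 and 306 to 917 in LV E9. The part of endothelial or epicardial content in the level of any of these genes was not tested.

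**Figure D4:**
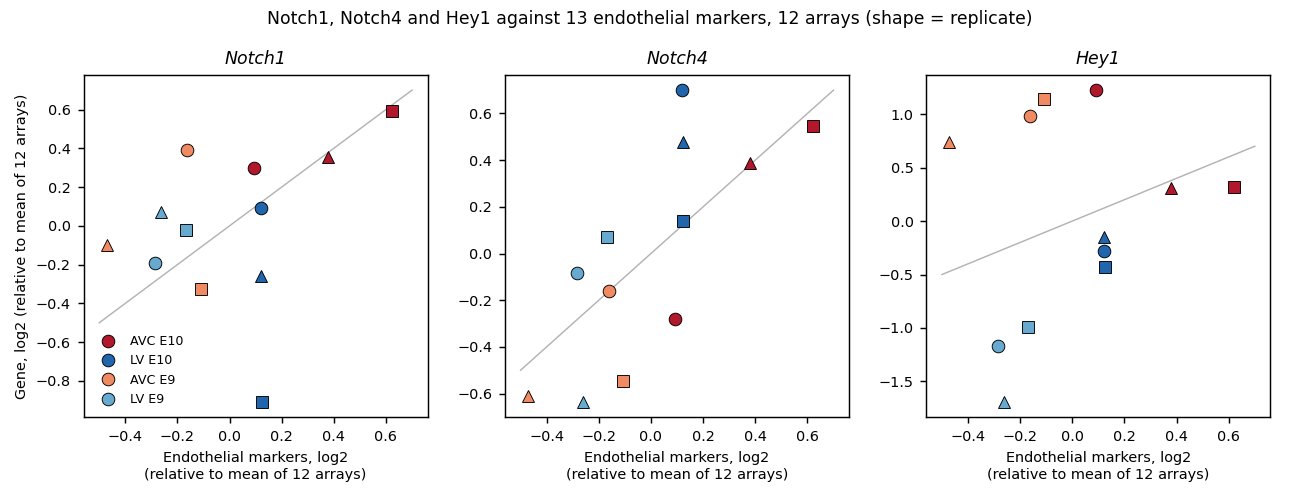
Level of Notch1, Notch4 and Hey1 (one panel each, vertical) against the mean of 13 endothelial markers (horizontal) on the 12 arrays, both as log2 relative to the mean of the 12 arrays, coloured by group and shaped by replicate, with a grey line where both change equally. The E10 arrays lie to the right, at marker levels of 0.09 to 0.62, and the E9 arrays to the left, at -0.47 to -0.11, and in the Hey1 panel all AVC E9 arrays lie above the line and all LV E9 arrays below it.

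Beyond the 10 genes, 50 of 56 listed genes of the Notch pathway were measured, from other ligands and receptor-modifying enzymes to nuclear cofactors and other Hes genes. Rbpj, the gene of the DNA-binding partner RBPJ, was under the limit on every array with its brightest probe. In the AVC against the LV, 2 of the 50 were called higher at E10 and 1 at E9, with 0 lower at either age, against 2.06% and 0.855% of all genes called higher. The median differences of the 50 were 0.27 at E10 and 0.15 at E9, against 0.07 and 0 over all genes. Among genes above background, the medians were 0.29 and 0.16 for the pathway, against 0.18 and 0.08 for all. For age, 0 of the 50 were called in the AVC, against 0.551% of all genes, with 7 at an unadjusted limma p under 0.05, near the 12.5% of all genes. In the LV 1 was called higher and 1 lower, near the 2.37% of all genes. Of 8 further repressors of the Hes and related Bhlhe40 and Helt kind, Hes6 and Bhlhe40 were above background on all 12 arrays and the other 6 on none.

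Furin, the protease that cuts Notch receptors on their way to the cell surface and also matures many other proteins, was the gene called at both ages. It gave 3349, 2751 and 2928 on the AVC E10 arrays, against 1135, 1083 and 1099.6 on the LV E10 arrays. The E9 intensities were 2805, 2183 and 2590.4 in the AVC, against 1418, 1309.5 and 1516 in the LV. The tissues were well separated at both ages. The difference was 1.44 ± 0.10 at E10 (2.71-fold, adjusted p = 0.000966) and 0.83 ± 0.10 at E9 (1.78-fold, adjusted p = 0.0144), and both calls held without each array in turn. Averaging its 3 probes, 1 of them above background on a single array, ended both calls (1.22, adjusted p = 0.396, at E10 and 0.42, adjusted p = 0.917, at E9). That dim probe gave 0.54 at E10 and -0.56 at E9, and the other bright probe gave 1.70 and 1.01. With the compared arrays alone the E10 call held (adjusted p = 0.0336) and the E9 call was lost (adjusted p = 0.101).

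Poglut1, the enzyme that adds O-glucose to the repeats of the Notch extracellular domain, gave 1269, 1006 and 1129.9 on the AVC E10 arrays, against 610.0, 658 and 814 on the LV E10 arrays. At E9 it gave 952, 954 and 1002 in the AVC, against 893, 845 and 933 in the LV. The E10 groups were far apart and the E9 groups nearly touched. The difference was 0.71 ± 0.11 at E10 (1.64-fold, adjusted p = 0.0223) and 0.12 ± 0.11 at E9 (adjusted p = 0.801). Leaving out AVC E10 replicate 1, AVC E10 replicate 3 or LV E10 replicate 2 ended the E10 call, with adjusted p up to 0.0862.

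The age calls in the LV were Aph1a, a subunit of the gamma-secretase that releases the Notch intracellular domain, and Cir1, a corepressor that binds RBPJ. Aph1a gave 131, 158 and 193 on the LV E10 arrays, against 444, 378 and 519 on the LV E9 arrays, and fell by 1.48 ± 0.28 on the log2 scale (adjusted p = 0.0406). A second bright Aph1a probe gave -0.03, so the probes disagreed. Cir1 gave 332, 404 and 263 on the LV E10 arrays, against 178, 173 and 162 on the LV E9 arrays, a difference of 0.94 ± 0.19 (adjusted p = 0.0441). Its other bright probes gave 0.44 and 0.36. The Aph1a call held in 4 and the Cir1 call in 3 of the 12 fits without an array.

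**Figure D5:**
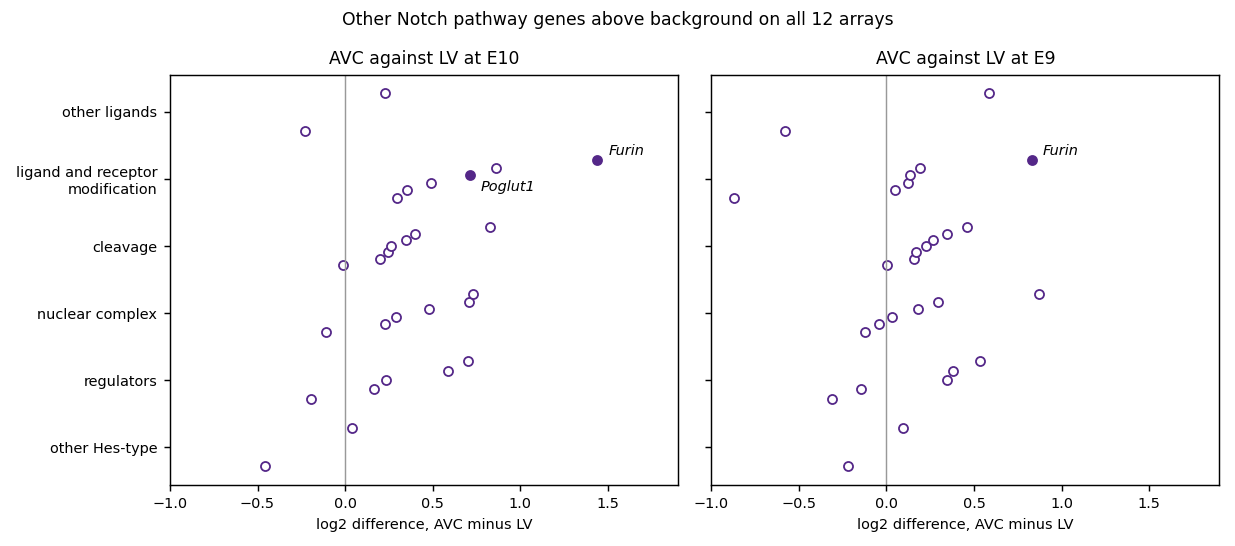
Log2 difference, AVC minus LV at E10 and at E9, of the 28 other Notch pathway genes above background on all 12 arrays, with filled points at adjusted p under 0.05 (limma, 3 arrays a group). Furin is filled at both ages (1.44 and 0.83) and Poglut1 at E10 (0.71).

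A further 12 heart genes linked to Notch signalling in the mouse embryo were examined. The list does not separate genes that Notch activates from genes held down through Hey1 and Hey2, such as Bmp2 and Tbx2. At each age 3 of the 12 were called higher in the AVC and 0 lower, against 2.06% of all genes called higher at E10 and 0.855% at E9. The 3 were Snai1, a repressor of cadherins in the endocardial-to-mesenchymal transition, and Tbx2 and Bmp2, the AVC repressor of chamber genes and the ligand upstream of it. Snai1 was also among the cushion mesenchyme markers above, and Tbx2 and Bmp2 among the AVC myocardium markers, so these counts are not separate observations. Snai1 gave 284, 206 and 349 on the AVC E10 arrays, against 74.0, 72.3 and 91.8 on the LV E10 arrays. The E9 arrays read 203, 213 and 168 in the AVC, against 46.9, 30.6 and 62.9 in the LV. No AVC array came near the LV range, and the difference was 1.79 ± 0.28 at E10 (3.47-fold, adjusted p = 0.0196) and 2.11 ± 0.28 at E9 (4.32-fold, adjusted p = 0.0173). The E10 call was lost without AVC E10 replicate 1, AVC E10 replicate 3 or LV E10 replicate 2, and the E9 call without AVC E9 replicate 1 or 2. A fit of the compared arrays alone ended both (adjusted p = 0.0933 and 0.103).

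Tbx2 gave 212, 165 and 191 on the AVC E10 arrays, against 33.6, 12.7 and 5.23 on the LV E10 arrays. At day 9 it read 341, 202 and 262 in the AVC, against 30.6, 9.99 and 13.6 in the LV. In the LV it was above background on replicate 1 alone at each age, so no fold is given (adjusted p = 0.026 at E10 and 0.0324 at E9), and without an array the call held in 8 of 12 fits at E10 and 3 of 12 at E9. Averaging this Tbx2 probe with its other probe, which was under the limit on every array, ended both calls (2.06, adjusted p = 0.257, at E10 and 2.90, adjusted p = 0.134, at E9). Bmp2 gave 68.9, 27.5 and 30.0 on the AVC E10 arrays and was under the limit on all LV E10 arrays, which makes it at least 1.54-fold higher in the AVC, the LV being taken at the background limit (adjusted p = 0.00617). At E9 it passed the limit on 2 of the 3 AVC arrays and on no LV array (adjusted p = 0.0208), a call that held in 8 of 12 fits without an array. The Bmp2 values depend on the floor: with values under 16 set to 16 the difference was 1.26 at E10 (adjusted p = 0.21) and 0.90 at E9 (adjusted p = 0.568), and with log2 of the value plus 50 it was 0.67 at E9 (adjusted p = 0.141).

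The genes whose log2 level ran most like Hey1 over the 12 arrays, of 8339 genes above background on all of them, were Etfbkmt (Pearson's r 0.97), Dusp4 (0.95) and Pwwp2b (0.93). For Hey2 they were Smpdl3b (0.94), Slmap (0.92) and Mest (0.91). These are descriptions over arrays that share tissue and age groups.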

How the data were processed

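Total RNA of dissected AVC and LV from E10 and E9 hearts was hybridised to Illumina Mouse WG-6 v2 BeadChips, 12 arrays in 4 groups of 3. The authors deposited linear intensity values, background-subtracted and with a mean of 386 on every array. The scaling method was not stated. Array medians were 7.72 to 11.1, and 34.7% of values were below 0. Values under 1 (36.8%) were set to 1 and log2 was taken, with no further normalization. Where both groups of a comparison lay near background, the difference depends on that floor. Precision is limited by having 3 arrays a group.

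Of 45281 probes, 34885 carried 1 gene symbol, 18 several and 10378 none in the platform annotation. Each of 19057 genes was read by its brightest probe on average. limma 3.58.1 in R 4.3.3 was fitted to the 4 groups over all probes (8 residual degrees of freedom), and p-values were adjusted over the 19057 genes (Benjamini-Hochberg, threshold 0.05). Fold changes are 2 to the power of the log2 difference, and intervals are 95%. The fitting was tested on simulated data. Pathway genes were given with their differences where they passed the test. The members and all gene lists were chosen with earlier results of these data known. Nothing in the labels says that replicates came from separate litters, so the p-values rest on a spread between arrays that may be only technical. Alternatives were quantile normalization, another floor or offset, a filter on dim genes, the mean over probes, the compared arrays alone, the replicate number as a block, the study's thresholds and leaving out each array.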

Additional observations from a re-analysis of the deposited data

Results flagged for a closer look

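In each of 3 measures, every AVC array at E10 lay on one side of every AVC array at E9 and every LV array on the opposite side, so that the ages differed in opposite directions in the 2 tissues. Poglut1 had an E10 minus E9 difference of 0.22 in the AVC and -0.37 in the LV, and the interaction did not pass the test (limma, adjusted p = 0.667). Its lowest AVC E10 array, at 1006, barely cleared its highest AVC E9 array, at 1002. The balance of Hey1 over Hey2 differed by -0.80 in the AVC and 1.45 in the LV, and the difference between the tissues was not tested. Hey1 relative to the endothelial markers differed by -0.95 in the AVC and 0.63 in the LV, and the difference between the tissues was not tested. In this measure AVC E10 replicate 1, at 1.132, lay just under the lowest AVC E9 array, at 1.147. The other AVC E10 arrays were at -0.31 and -0.07. Hey1 enters this measure and the balance alike, so they are not separate observations.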

How the results depend on the processing

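Of the 10 genes, the number called in AVC against LV at E10 was 1, and 2 with log2 of the value plus 50. At E9 it was 2, but 1 after quantile normalization, 1 with the replicate block, 1 at the study's thresholds and 0 with the compared arrays alone. For age it was 0 in the AVC, and 1 with log2 of the value plus 50 or at the study's thresholds. In the LV it was 0, and 1 with the filter (Notch3) and 2 with limma on genes above background, which was chosen after seeing the data (Notch3 and Hey1). For the interaction it was 0, and 1 at the study's thresholds. Leaving out each array gave 1 to 2 at E10, 0 to 2 at E9, 0 to 1 for age in either tissue and 0 for the interaction.

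Over all genes, 438 were called at E10, and 268 after quantile normalization, 276 with the mean over probes, 72 with the compared arrays alone and 269 at the study's thresholds. At E9 195 were called, and 303 with the filter, 347 with limma on genes above background and 83 with the compared arrays alone. For age in the AVC 105 were called, and 63 after quantile normalization, 182 with the floor of 16, 247 with log2 of the value plus 50, 201 with the filter, 289 with limma on genes above background, 21 with the compared arrays alone, 66 with the replicate block and 260.0 at the study's thresholds. In the LV 452 were called, and 965 with the filter, 978 with limma on genes above background, 75 with the compared arrays alone and 794 with the replicate block. For the interaction 6 were called, and 3 with log2 of the value plus 50, 0 with the filter, 2 with limma on genes above background, 3 with the replicate block and 98 at the study's thresholds. Leaving out each array gave 97 (without AVC E10 replicate 3) to 730.0 genes (without LV E10 replicate 1) at E10, 59 (AVC E9 replicate 1) to 422 (LV E10 replicate 1) at E9, 25 (AVC E10 replicate 3) to 465 (AVC E10 replicate 1) for age in the AVC, 54 (LV E10 replicate 2) to 2630.0 (LV E10 replicate 1) for age in the LV and 10 to 43 for the interaction. Quantile normalization gave 186 higher and 82 lower at E10, against 392 and 46, and 97 higher and 52 lower at E9, against 163 and 32.

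The deviations of same-numbered samples had correlations of -0.37 to 0.52. With 3 arrays a group, these cannot decide whether the numbers pair the samples. Differences of genes not called changed sign as follows: Notch1 at E9 was -0.053 after quantile normalization and -0.16 to 0.19 without an array, and the Notch4 interaction was -0.078 after quantile normalization, -0.0061 with log2 of the value plus 50, -0.14 with the mean of probes and -0.16 to 0.25 without an array. Without an array Jag1 at E9 ran from -0.49 to 0.26, Notch4 at E10 from -0.39 to 0.027, Hes1 at E10 from -0.027 to 0.40, Heyl for age in the LV from -1.01 to 0.76 and the Hes1 interaction from -0.36 to 0.072. The cause of these changes was not tested. No differences are given for Notch2 and Dll4, which signal over background did not allow.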
